A study of Mus musculus with 4 samples.

Results

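The p200 or PYHIN genes are a family of interferon-inducible genes that lie side by side on mouse chromosome 1, and their transcripts were examined in 4 RNA-seq libraries of sorted splenic CD4+ T cells. The 10 genes named for this account were *Ifi204*, *Ifi203*, *Ifi203-ps*, *Ifi211*, *Ifi213*, *Ifi209*, *Ifi206*, *Mndal*, *Aim2* and *Pyhin1*, matched by gene symbol among the 55367 symbols of each count table. A row was found for 9 of them. *Pyhin1* has no row, and RefSeq gives that symbol as a synonym of *Ifi209*. The genes were chosen with their values in the knockout and control libraries known, so that comparison is described for them with no test. Another 5 genes of the family that have a row, *Ifi208*, *Ifi214*, *Ifi207*, *Ifi202b* and *Ifi205*, are given beside them.

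There were 2 libraries from mice labelled WT and 2 from mice labelled *Satb1* conditional knockout (cKO), all labelled C57BL/6. In the cKO mice the floxed *Satb1* alleles (*Satb1* F/F) are removed by Cre recombinase under *Thpok* control (*ThPOK-cre*), which acts once thymocytes commit to the CD4 lineage, so the whole CD4+ compartment is targeted. The study used young adult mice of both sexes, with no age, sex or Cre status given for single libraries, and the controls are labelled only WT. SATB1, a nuclear factor, folds chromatin in T cells, and the study asks which transcripts depend on it in mature cells.

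PYHIN proteins pair a pyrin domain, through which proteins of cell death and inflammation pathways assemble, with HIN domains that bind double-stranded DNA. AIM2 binds DNA in the cytosol and recruits the adaptor ASC to form an inflammasome that activates caspase-1. IFI204 is a nuclear and cytosolic DNA sensor linked to STING and interferon-β, and IFI203 and MNDAL are mainly nuclear. Many family members arose by recent duplication, and the number and sequence of the genes differ between inbred mouse strains.

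Total gene counts ran from 4495902 to 6555699 per library, and 12403 genes passed the filter on low counts, among them all 9 members with a row. Expression is given as CPM, the count divided by the library total after TMM scaling and multiplied by 1000000. The count of *Satb1* did not separate the labels, at 868 and 984 CPM for WT and 945 and 847 CPM for cKO (log2 fold change -0.05, edgeR adjusted p = 0.877), so WT and cKO are used as the names of the labels. *Foxp3*, the gene of the regulatory T cell factor, rose from 142 and 121 CPM for WT to 405 and 547 CPM for cKO (log2 fold change 1.86, edgeR adjusted p = 0.000447). *Xist* and the Y-linked genes split with the labels. Counts of *Xist* were 5447 (WT 1), 4235 (WT 2), 9 (cKO 1) and 6 (cKO 2), and *Ddx3y* had 0 in both WT libraries and 525 and 597 in cKO. Sex and genotype cannot be told apart. The cells were CD4+ T cells by their markers, with *Cd4* at 1183 to 1279 CPM in every library and *Cd8a* at 4.25 to 6.86 CPM. *Cd8b1*, which encodes the other CD8 chain, was higher than *Cd8a* throughout, at 42.4 and 52.0 CPM for WT and 27.4 and 22.5 CPM for cKO. Of the 9 CD4 T cell markers, all tested, 1 was called, *Zbtb7b*, which encodes ThPOK and rose from 232 and 200.3 CPM for WT to 337 and 345 CPM for cKO (log2 fold change 0.66, edgeR adjusted p = 0.0117). Nothing in the sources pairs the mice.

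The members with a row span 591.8 kb, chr1:173350879-173942672 of GRCm38 (mm10), in the order *Aim2*, *Ifi206*, *Ifi213*, *Ifi209*, *Ifi204*, *Ifi203-ps*, *Mndal*, *Ifi211* and *Ifi203*. *Ifi214*, *Ifi208* and *Ifi207* lie between them, and *Ifi202b* and *Ifi205* follow. All are annotated as protein coding but *Ifi203-ps*, an unprocessed pseudogene, that is, a duplicated copy that kept its exon structure. RefSeq promoter windows on GRCm38.p6, 250 bases before to 50 after the start, were matched for 12 of the 14 genes and not for *Ifi204* and *Ifi203-ps*. These windows fell into groups of near-copies, which are given beside the levels of their genes. Whether promoter sequence bears on those levels was not tested. *Ifi209*, higher in the cKO libraries, and *Ifi214*, lower in them, shared 287 identical bases in an alignment of 299 bases. Their whole windows are printed 5′ to 3′, with capitals marking a match to GAAA, any 2 bases and GAAA again, the core of the interferon-stimulated response element (ISRE).
Ifi209, chr1:173630609-173630908, plus strand: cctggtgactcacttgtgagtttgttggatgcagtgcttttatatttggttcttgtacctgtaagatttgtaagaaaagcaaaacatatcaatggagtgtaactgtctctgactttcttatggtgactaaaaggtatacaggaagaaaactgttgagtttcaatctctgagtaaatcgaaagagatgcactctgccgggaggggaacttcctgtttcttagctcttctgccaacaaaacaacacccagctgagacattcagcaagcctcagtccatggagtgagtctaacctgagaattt
Ifi214, chr1:173535908-173536207, minus strand: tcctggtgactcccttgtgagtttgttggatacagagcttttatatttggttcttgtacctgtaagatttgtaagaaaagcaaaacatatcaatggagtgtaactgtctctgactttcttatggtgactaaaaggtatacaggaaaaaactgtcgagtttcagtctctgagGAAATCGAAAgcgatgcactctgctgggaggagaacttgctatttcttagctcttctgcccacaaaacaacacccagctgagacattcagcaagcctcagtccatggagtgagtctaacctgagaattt

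The windows of *Ifi206*, *Ifi213* and *Ifi208*, each of which was lowest in WT 1, formed another group, with 263 to 282 identical bases in each pair. *Mndal* and *Ifi203*, whose pooled levels differed by at most 1.34-fold between the labels, each have a first and a second window. The first of *Mndal* and the second of *Ifi203* formed one more group, with 282 identical bases. Other pairs of windows between these genes shared 27 to 104. The ISRE core, searched on both strands, was found in 10 of the 14 windows, from 9 of the 12 genes, where 3.44% of all 32851 RefSeq promoter windows hold it. Near-copies are counted separately here, so these matches are not independent of one another. TTCNNNGAA, the element bound by STAT dimers, was found in 1 of the 14, against 8.30% of all windows. The 50 bases around the match are given for members with distinct behaviour in the libraries.
Ifi206, chr1:173491329-173491378, minus strand: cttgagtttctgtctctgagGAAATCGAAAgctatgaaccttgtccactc
Ifi213, chr1:173599316-173599365, minus strand: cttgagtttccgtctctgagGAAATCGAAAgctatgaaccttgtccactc
Mndal, chr1:173880194-173880243, minus strand: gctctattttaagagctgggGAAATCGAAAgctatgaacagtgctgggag
Ifi203, chr1:173942498-173942547, minus strand: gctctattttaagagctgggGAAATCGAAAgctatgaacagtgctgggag
Ifi211, chr1:173913054-173913103, minus strand: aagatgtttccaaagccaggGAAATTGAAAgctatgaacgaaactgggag

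The stretches printed for *Mndal* and *Ifi203* are identical. The match began at position -40 in *Ifi206*, -73 in *Ifi213*, -36 in the first *Mndal* window and -37 in *Ifi211*, counted from the RefSeq start. The second *Mndal* window held another match at -54, and the first *Ifi203* window held none. *Ifi209*, *Aim2* and *Ifi202b* held no match to the ISRE core in their windows. A match describes letters and says nothing of binding.

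**Figure D1:**
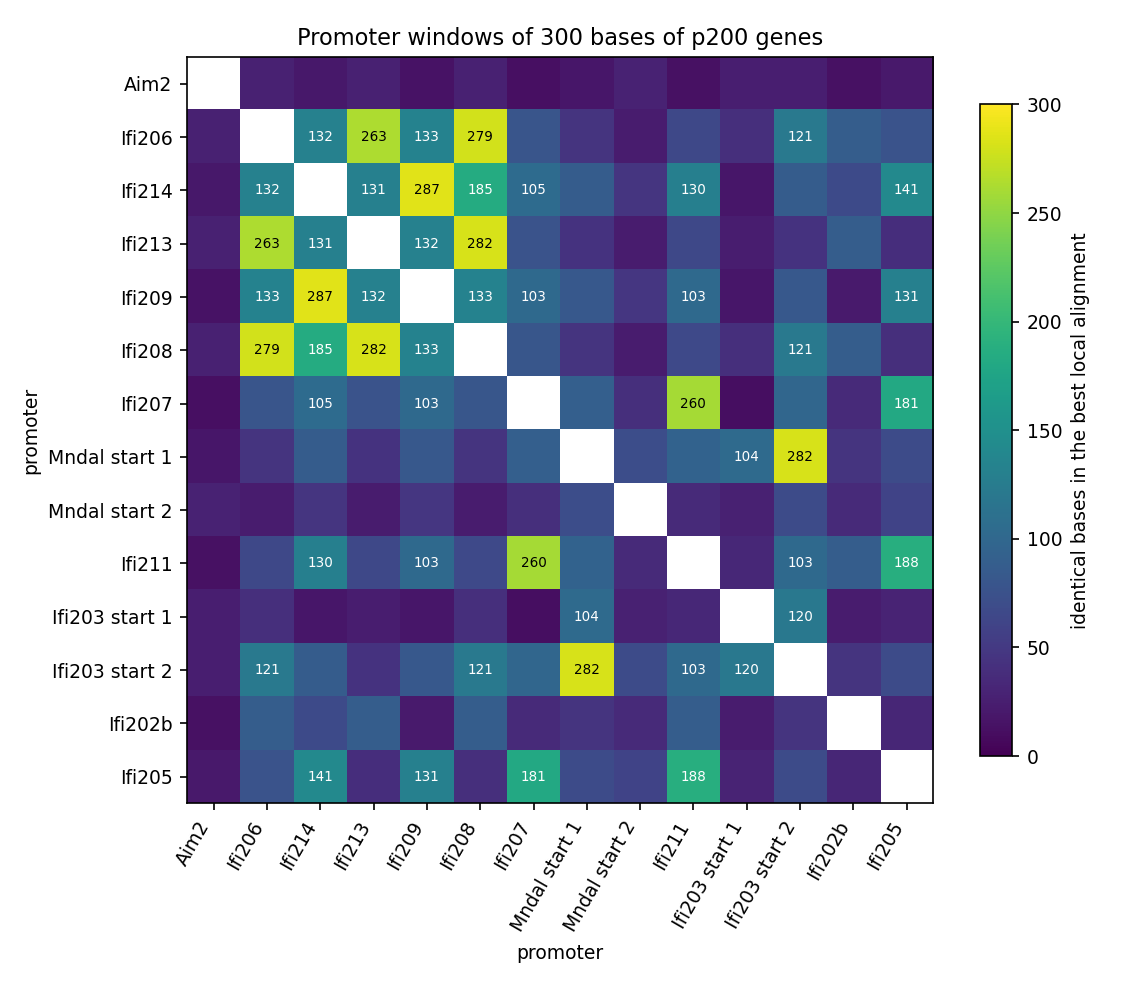
Number of identical bases in the best local alignment of each pair of p200 promoter windows of 300 bases, drawn as colour and printed where it is 100 or more. Bright cells join Ifi206, Ifi213 and Ifi208, Ifi214 and Ifi209, Mndal and Ifi203, and Ifi207 and Ifi211.

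The members fell apart into 3 kinds of behaviour. *Ifi204*, *Ifi203-ps* and *Ifi211* were nearly absent from the libraries labelled cKO. *Ifi206*, *Ifi213* and *Ifi209* were higher in those libraries than in WT 1, with WT 2 between or level with cKO 1. The pooled levels of *Ifi203*, *Mndal* and *Aim2* differed by at most 1.34-fold between the labels, though single libraries of *Ifi203* and *Mndal* lay farther apart. In CPM the libraries of the labels did not overlap for 4 members that were lower in cKO and 3 that were higher, where 25.4% and 24.8% of all genes tested did so. In the quasi-likelihood test of edgeR at an adjusted p under 0.05, 3 of the 9 members were among the genes called, beside 4.30% of all genes tested. All 3 were lower, beside 1.95% of genes tested, and none was higher, beside 2.35%. Since the members were chosen on this comparison, nothing is read from these counts.

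**Figure D2:**
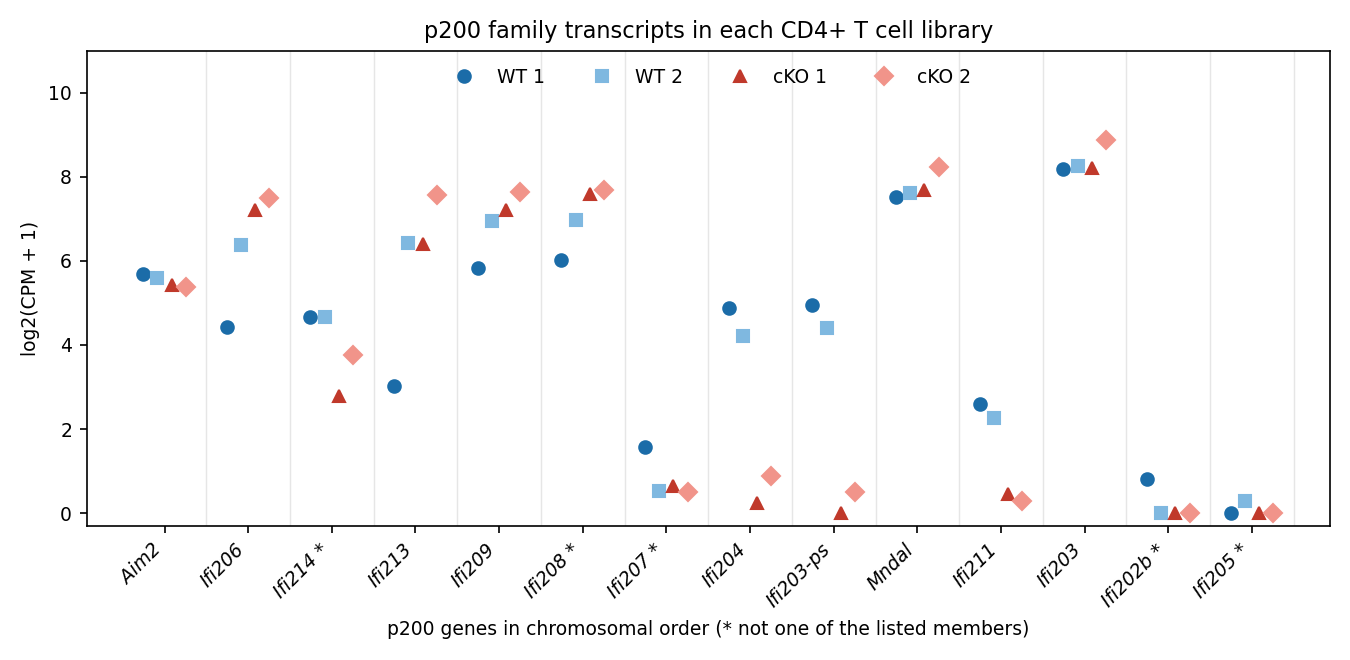
Expression of the 14 p200 genes with a row, as log2(CPM + 1), in chromosomal order, with a point for each of the 4 libraries. Ifi204, Ifi203-ps and Ifi211 lie at or near 0 in both cKO libraries, and Ifi206, Ifi213, Ifi209 and Ifi208 are lowest in WT 1.

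Counts of *Ifi204* (chr1:173747293-173766943, minus strand) were 187 (WT 1), 78 (WT 2), 1 (cKO 1) and 4 (cKO 2). In CPM the WT values of 28.6 and 17.5 stood against cKO values of 0.191 and 0.850. The groups did not overlap, and the cKO values lay at the level of a few reads. With counts pooled within each label, the level was 47.9-fold lower in cKO, with an exact binomial interval at 95% of 20.3 to 149-fold that covers counting error only.

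*Ifi203-ps* (chr1:173776529-173798270, minus strand), the pseudogene next to *Ifi204*, reached 196 counts (WT 1) and 90 (WT 2), against 0 (cKO 1) and 2 (cKO 2). In CPM it stood at 29.98 and 20.2 against 0 and 0.425. Both cKO values were under the level of 3 counts. The pooled level was 129-fold lower in cKO, and with 2 counts in that group the interval was wide, from 35.5 to 1073-fold.

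*Ifi211* (chr1:173896345-173913046, minus strand), which lies within the annotated span of *Mndal*, gave 33 counts (WT 1) and 17 (WT 2), against 2 (cKO 1) and 1 (cKO 2). Its level was 5.05 and 3.81 CPM in WT and 0.381 and 0.213 CPM in cKO libraries, so the gene was low in all of them. The pooled level was 15.1-fold lower in cKO, with an interval of 4.87 to 75.6-fold. All of the 3 members at or near 0 were above it in both WT libraries, and each was lower in WT 2 than in WT 1, by 0.611-fold for *Ifi204*, 0.673-fold for *Ifi203-ps* and 0.755-fold for *Ifi211*. A pooled level at least 8-fold lower in cKO was seen in 29 of the 12403 genes tested, or 0.234%. The summed level of *Ifi204*, *Ifi203-ps* and *Ifi211* was 63.6 and 41.5 CPM for WT against 0.572 and 1.49 CPM for cKO. In bulk samples, fewer cells that express a gene and less RNA of it per cell cannot be told apart.

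Counts of *Ifi206* (chr1:173468485-173491041, minus strand) were 134 (WT 1), 364 (WT 2), 769 (cKO 1) and 850 (cKO 2). Its level was 20.5 CPM in WT 1 and 81.6 CPM in WT 2, against cKO values of 147 and 181 CPM. The groups did not overlap, but the WT libraries stood 3.98-fold apart. The pooled level was 3.59-fold higher in cKO. On the log2(CPM + 1) scale the difference of 1.96 was 0.99 without WT 1 and 2.93 without WT 2. The mean was 51.0 ± 43.2 CPM (SD, n = 2) in WT and 164 ± 24.1 CPM (SD, n = 2) in cKO.

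*Ifi213* (chr1:173566283-173599274, minus strand) had the widest spread within a label, with counts of 47 (WT 1), 377 (WT 2), 441 (cKO 1) and 893 (cKO 2). In CPM these are 7.19 and 84.5 for WT, against 84.0 and 189.8 for cKO. WT 2 and cKO 1 were level and the groups overlapped, with means of 45.8 ± 54.6 CPM (SD, n = 2) and 137 ± 74.8 CPM (SD, n = 2). The pooled level was 3.48-fold higher in cKO, but the log2(CPM + 1) difference of 2.27 was 0.58 without WT 1 and 3.96 without WT 2.

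*Ifi209* (chr1:173630917-173647928, plus strand), the gene also called *Pyhin1*, stood at 56.1 and 123 CPM in WT 1 and WT 2 and at 147 and 199 CPM in cKO 1 and cKO 2. The groups did not overlap, and the pooled level was 2.06-fold higher in cKO. Its log2(CPM + 1) difference of 1.03 was 0.47 without WT 1 and 1.59 without WT 2. The summed level of *Ifi206*, *Ifi213* and *Ifi209* was 83.8 CPM in WT 1, 289 CPM in WT 2, 378 CPM in cKO 1 and 569 CPM in cKO 2. For this sum WT 2 lay nearer to cKO 1 than to WT 1.

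The spread between the WT libraries was set against that of all genes tested, after the values of the members had been seen. On the log2(CPM + 1) scale, WT 2 exceeded WT 1 by 3.38 for *Ifi213*, which ranked 1 of 12403 genes by the size of this difference. *Ifi206* differed by 1.94 and ranked 9, *Ifi209* by 1.12 and ranked 76, and the neighbouring *Ifi208* by 0.94 and ranked 142. The median size of the difference was 0.13 and the 99th percentile 0.97. A difference of at least 1 was seen in 0.863% of genes tested, and in 3 of the 9 members. The same members differed less between the cKO libraries, by 1.17 for *Ifi213*, 0.30 for *Ifi206* and 0.43 for *Ifi209*. *Ifi204* and *Ifi203-ps* went the other way between the WT libraries, by -0.68 and -0.55. These ranks describe 2 libraries with the same label and carry no test.

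**Figure D3:**
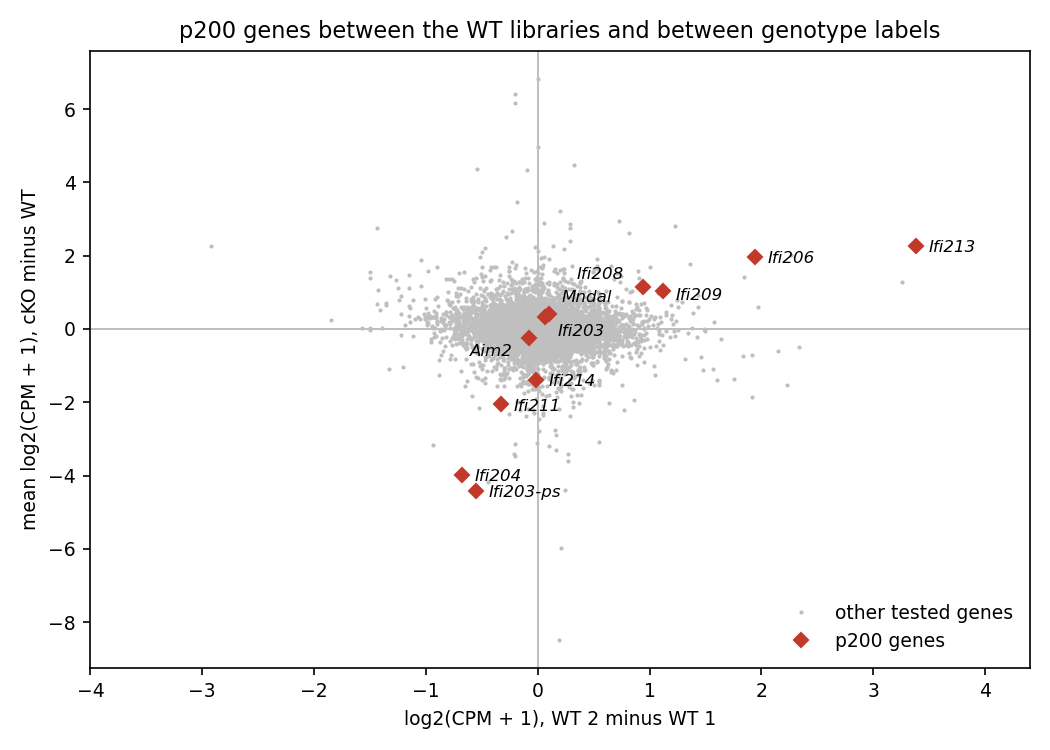
Each point is a tested gene, with the difference of WT 2 from WT 1 on the x axis and the difference of the cKO mean from the WT mean on the y axis, both in log2(CPM + 1). Ifi213 lies farthest right of all genes at 3.38, Ifi206 lies at 1.94, and Ifi204 and Ifi203-ps lie left of 0 at -3.98 and -4.42 on the y axis.

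*Ifi203* (chr1:173920407-173942672, minus strand), the most abundant member in CPM, had 290 CPM in WT 1, 303 CPM in WT 2, 294 CPM in cKO 1 and 470.2 CPM in cKO 2. WT 2 lay above cKO 1, so the groups overlapped, and only cKO 2 was high. The pooled level was 1.28-fold higher in cKO, and on the log2(CPM + 1) scale the difference of 0.33 became -0.01 without cKO 2. The annotated pseudogene *Ifi203-ps*, a relative of this gene, was among those nearly absent from the cKO libraries.

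*Mndal* (chr1:173849126-173942491, minus strand), a gene of the MNDA type, stood at 182 and 195 CPM for WT and at 206 and 299 CPM for cKO. The groups were apart by a narrow margin, and the pooled level was 1.34-fold higher in cKO. *Aim2* (chr1:173350879-173466040, plus strand), the inflammasome sensor, stood at 50.3 and 47.5 CPM for WT and at 42.3 and 40.4 CPM for cKO. It was lower in both cKO libraries, by 1.19-fold in pooled counts, with a counting interval of 1.04 to 1.35. Its SD was 1.995 CPM in WT and 1.36 CPM in cKO (n = 2 each).

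The summed level of the 9 members was higher in both cKO libraries than in both WT libraries. It was 669 CPM in WT 1, 876 CPM in WT 2, 920.4 CPM in cKO 1 and 1381 CPM in cKO 2. The pooled sum was 1.51-fold higher in cKO, and 1.66-fold higher without *Ifi203*.

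Among the family genes not named as members, *Ifi208* and *Ifi214* passed the filter and were tested in the fit over all genes. *Ifi208*, which lies between *Ifi209* and *Ifi204*, stood at 64.2 and 124 CPM for WT and at 192 and 205 CPM for cKO. Its log2 fold change was 1.09 in the edgeR quasi-likelihood test (adjusted p = 0.0431), and DESeq2 did not call it (adjusted p = 0.251). The edgeR log2 fold change was 0.69 without WT 1 and 1.62 without WT 2. Its adjusted p ran from 8.07e-16 to 0.251 over 12 fits, of which 11 called it. *Ifi214*, which lies between *Ifi206* and *Ifi213*, stood at 24.5 and 24.2 CPM for WT and at 5.91 and 12.5 CPM for cKO. Its log2 fold change was -1.41 (edgeR adjusted p = 0.0338), and the call was lost without WT 2 (adjusted p = 0.109), with a range of 1.15e-08 to 0.109 over 12 fits. The log2 fold change was -0.96 without cKO 1 and -2.04 without cKO 2. *Ifi214* was thus lower while *Ifi206*, on one side of it, was higher, and unlike its neighbours it was level between the WT libraries. *Ifi207* had 13 counts in WT 1 and 2, 3 and 2 in the others, *Ifi202b* had 5 in WT 1 and 0 elsewhere, and *Ifi205* had 1 count in all.

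Levels of the genes were compared per kilobase of annotated exon. In the WT libraries *Mndal* was highest with a mean of 51.9 CPM per kb, followed by *Ifi203* with 44.2, and the libraries of both were apart. *Ifi209* (25.3), *Ifi208* (17.9), *Ifi206* (16.7) and *Aim2* (14.0) came next in CPM per kb, each overlapping its neighbour in this order. *Ifi203-ps* (9.81), *Ifi213* (6.70) and *Ifi204* (6.47) followed and also overlapped, and *Ifi214* (3.002) and *Ifi211* (2.48) were lower still. In the cKO libraries *Mndal* (69.7), *Ifi203* (57.0), *Ifi206* (53.6) and *Ifi209* (48.8) led, each overlapping the next. The WT means join unlike libraries for some members. *Ifi206* had rank 8 in WT 1, at 6.71 CPM per kb, and rank 4 in WT 2, at 26.7. *Ifi213* had rank 11 in WT 1, at 1.05 CPM per kb and below *Ifi214*, and rank 7 in WT 2. *Ifi204* had rank 7 and rank 9 in the WT libraries, and 0.146 CPM per kb on average in cKO.

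Reads of 50 bases that align to more than 1 place are left out of the counts, so the transcripts were cut into windows of 50 bases and searched for in all GENCODE M21 transcripts on both strands. *Aim2* was almost wholly distinct, with 99.3% of its windows found in no other gene. The share was 87.7% for *Ifi203*, 84.4% for *Ifi213*, 80.0% for *Ifi204*, 74.4% for *Ifi206*, 73.7% for *Ifi203-ps* and 66.3% for *Ifi209*. *Ifi211* stood apart with 27.2%, and it shared 44.7% of its windows with *Ifi205*, so its count is the least certain of the members. Divided by the length found in no other gene, its WT mean was 9.40 CPM per kb in place of 2.48, which put it at rank 8, above *Ifi204* (8.20), *Ifi213* (7.78) and *Ifi214* (3.50). *Ifi209* shared 33.4% of its windows with *Ifi214*, and *Ifi203-ps* shared 24.3% with *Ifi203*. Exons of *Mndal* and *Ifi203* overlap by 37 bases on the same strand. Each gene at or near 0 in cKO thus had windows of its own, 2809 for *Ifi204*, 1847 for *Ifi203-ps* and 471 for *Ifi211*. The search covers reference transcripts only, and unspliced or intergenic sequence was not searched.

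**Figure D4:**
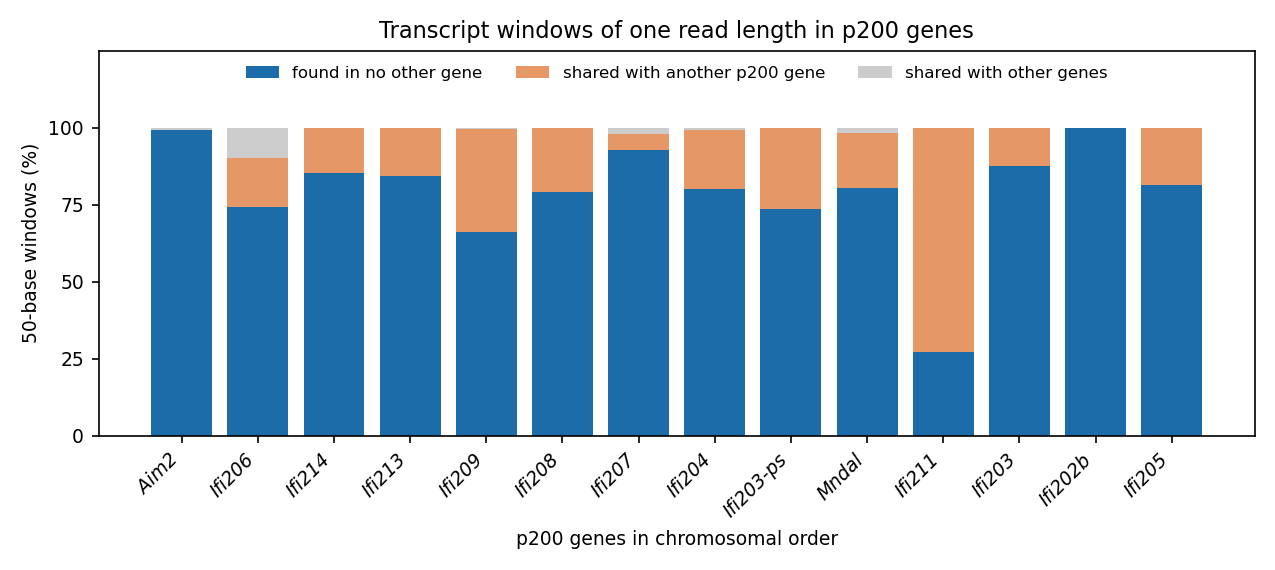
Share of the 50-base windows of each gene's annotated transcripts that is found in no other gene, shared with another p200 gene, or shared with other genes. Ifi211 keeps 27.2% of windows to itself, and Aim2 99.3%.

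To see whether genes around the family moved too, the genes tested within 5 Mb of either end of the members' span were examined. Of 60 such genes 1 was called higher and 2 lower, all 3 among the 48 genes before the family rather than the 12 after it. That is 5% of flanking genes, against 6.61% of the 651 genes tested on the rest of chromosome 1 and 4.30% of all genes tested. *Tagln2*, which encodes an actin-binding protein, fell with a log2 fold change of -0.86 (edgeR adjusted p = 0.00683), from 478 and 386 CPM to 241 and 235 CPM. *Slamf6*, a lymphocyte receptor of the SLAM family, fell by 0.44 (edgeR adjusted p = 0.0412) and *Usf1*, a transcription factor gene, rose by 0.52 (edgeR adjusted p = 0.0447). Neither was called without WT 1 (adjusted p = 0.274 and 0.287) or without WT 2 (0.351 and 0.310), and DESeq2 did not call *Usf1* (adjusted p = 0.134), while *Tagln2* was called in all 12 fits. The nearest tested genes were *Dusp23*, 717.9 kb before the span, with a log2 fold change of 0.93 (edgeR adjusted p = 0.235), and *Fh1*, 1658 kb after it, with -0.05 (edgeR adjusted p = 0.911). No flanking gene had a fitted log2 fold change below -1.13, and between the WT libraries no flanking gene differed by more than 1.34 on the log2(CPM + 1) scale. Whether the mice carried a chromosome 1 segment from another strain was not tested, since counts per gene hold no sequence variants.

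**Figure D5:**
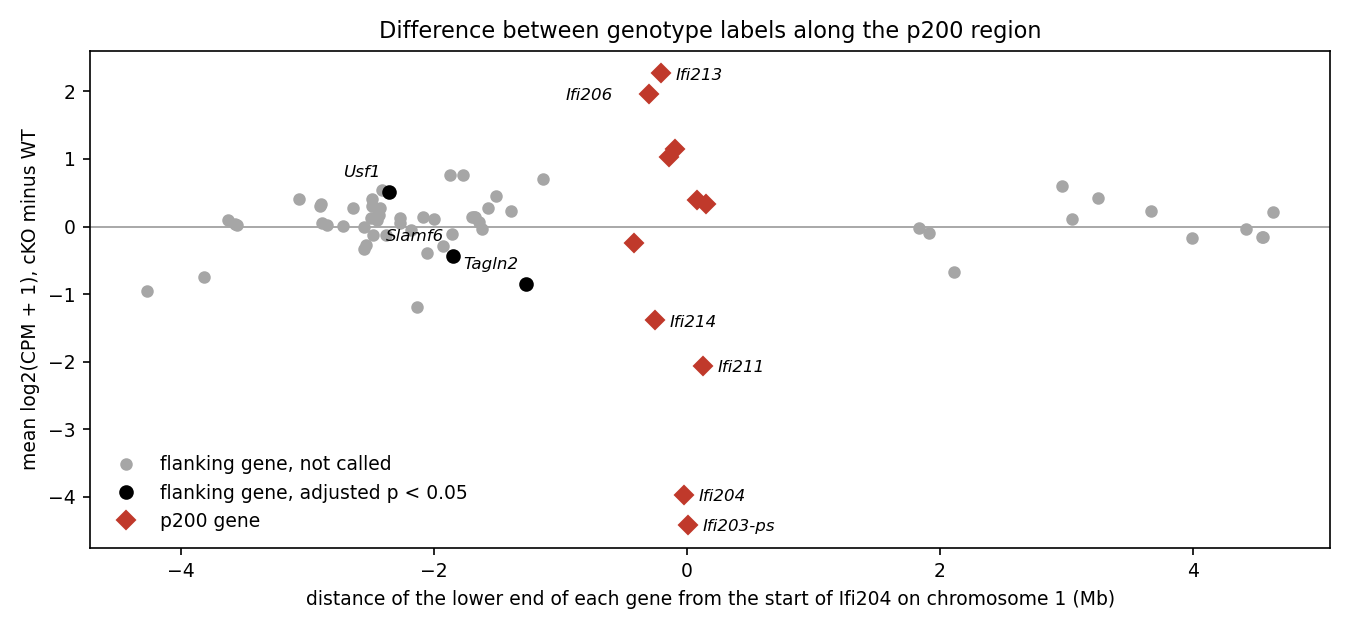
Difference of the cKO mean from the WT mean in log2(CPM + 1) for tested genes within 5 Mb of the p200 genes, against distance in Mb from the start of Ifi204. The p200 genes spread from -4.42 for Ifi203-ps to 2.27 for Ifi213, while the 60 flanking genes, of which 3 were called, stay between these extremes.

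The wider pathways of the family were described by gene lists chosen by function. Among 27 symbols of cytosolic DNA sensing and inflammasome genes, 18 were tested, with 1 called, which was higher, and a median log2 fold change of 0.06, beside a median of -0.0015 for all genes tested. The called gene was *Samhd1*, a nucleotide hydrolase that limits DNA synthesis by viruses, which rose with a log2 fold change of 0.69 (edgeR adjusted p = 0.0462), from 792 and 773 CPM to 1060 and 1469 CPM. Without WT 1 or without WT 2 it was not called, with edgeR adjusted p = 0.0938 and 0.359. *Ikbke*, a kinase of this pathway, had a log2 fold change of -0.18 (edgeR adjusted p = 0.505) and *Zbp1*, a nucleic acid sensor, had 0.07 (edgeR adjusted p = 0.826). *Pycard*, which encodes ASC, the partner of AIM2, had 121, 135, 118 and 109 CPM in WT 1, WT 2, cKO 1 and cKO 2, with edgeR adjusted p = 0.439. *Casp1* was low at 3.36 to 9.14 CPM, and *Il1b* and *Il18* had at most 6 counts in any library.

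Of 18 interferon signalling genes, all tested, 1 was called, which was higher, with a median log2 fold change of 0.24. The log2 fold change was above 0 for 15 of them and below 0 for 3, with 5 at an unadjusted edgeR p under 0.05. The called gene was *Ifngr1*, a chain of the interferon-γ receptor, which rose by 1.21 (edgeR adjusted p = 0.000889), from 234 and 198 CPM to 520 and 481 CPM. It was called in all 12 fits. The kinase gene *Jak1* (log2 fold change 0.14, edgeR adjusted p = 0.577) and the factor gene *Irf1* (0.19, edgeR adjusted p = 0.386) were not called.

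Of 48 interferon-stimulated genes outside the family, 44 were tested and 0 were called by edgeR, with 4 at an unadjusted p under 0.05 and 1 called by DESeq2. Their median log2 fold change was -0.04, with 18 above and 26 below 0. *Ly6e*, a surface protein gene, had a log2 fold change of 0.57 (edgeR adjusted p = 0.0535) and *Sp100*, a nuclear body gene, had -0.05 (edgeR adjusted p = 0.869). The cKO libraries differed from each other in *Ifit3* and *Gbp4*. *Ifit3* had 24.2 and 25.3 CPM in WT and 12.0 and 24.9 CPM in cKO libraries, and the guanylate-binding protein gene *Gbp4* had 209 and 188 CPM against 180.3 and 278 CPM. Without cKO 1, 12 of these genes were called, all higher, and without cKO 2, 16 were called, 14 of them lower.

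Some markers of other cells also moved with the label. Of 7 B cell markers tested among 10 named, *Pax5* and *Cd74* were called higher, and the summed level of the list was 627 and 499.7 CPM in WT and 809 and 538 CPM in cKO libraries. Most of that sum was *Ighm* (log2 fold change 0.00, edgeR adjusted p = 0.998), and without it the list stood at 43.6 and 54.9 CPM in WT and 227 and 89.3 CPM in cKO libraries. Of 10 myeloid markers tested among 11, *Lyz2*, *Cybb* and *S100a9* were called higher. *Itgam* (log2 fold change -0.85) and *Cd68* (-0.29) lay below 0 without a call, and the other 8 lay above it. The list summed to 80.9 and 99.9 CPM in WT and 179 and 108 CPM in cKO libraries. Its most abundant gene was *Cst3* (log2 fold change 0.23, edgeR adjusted p = 0.584). Without *Cst3* the list stood at 36.3 and 45.7 CPM in WT and 110 and 62.5 CPM in cKO libraries. Of 3 natural killer cell markers tested among 5, 2 were called lower, *Nkg7* and *Eomes*, which effector T cells also express, with sums of 71.7 and 63.6 CPM in WT and 20.2 and 29.97 CPM in cKO libraries. The defining markers *Ncr1* and *Klra8* had at most 3 counts in every library. The plasmacytoid dendritic cell list gave *Tcf4* higher and *Ccr9* lower among 4 tested, with *Siglech* at most 3 counts, the CD8 list *Cd8b1* lower among 2, and the naive list *Il7r* higher and *Ccr7* lower among 5. The part of these cells in the p200 differences was not tested.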

How the data were processed

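RNA from sorted splenic CD4+ T cells was sequenced as reads of 50 bases. Per the submitters' processing notes, the authors aligned reads to mm10 with HISAT2 2.1.0 and counted them per gene with HTSeq 0.11.1, and they deposited raw counts. The study's methods name another minor version of HTSeq. The annotation and strand setting are not given in the sources used here. Summary lines of HTSeq, which name no gene, were kept out. Reads that HTSeq assigned to no feature were 59.4% to 64.5% of uniquely aligned reads.

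Counts were analysed in R 4.3.3 with edgeR 4.0.16: filterByExpr, scaling by TMM, and its quasi-likelihood test of cKO against WT, with Benjamini-Hochberg adjustment over 12403 genes. DESeq2 1.42.0 was an alternative. The procedure was tested on simulated counts. The p-values measure only the spread between these libraries, and intervals cover counting error only. A count of 3 is 0.458 to 0.667 CPM. Differences on the log2 scale of single members use a pseudocount of 1 CPM, which understates changes of low genes. Positions and transcripts came from GENCODE M21, and promoters from RefSeq GRCm38.p6. Promoters were aligned with Biopython 1.88, and plots were drawn with matplotlib 3.10.9. Protein sequences were not used here.

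The members, gene lists and tests were chosen with earlier results of these data known. Named genes were the members, the other family genes with a count, every called flanking gene and the nearest on each side, every called list gene, the 2 uncalled genes of each list with the highest mean CPM, the marker genes by list, and the 5 genes nearest in profile to *Ifi204*. *Pycard*, *Casp1*, *Il1b*, *Il18*, *Ifit3* and *Gbp4* were named after their values were seen. The comparison of the WT libraries with each other and the ranks per library were also added after the data were seen. So were the B cell sum without *Ighm* and the myeloid sum without *Cst3*. Alternatives changed the scaling, filter, test, replicate block or flank size, or left out a library. Some items are not reported here.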

Additional observations from a re-analysis of the deposited data

How the results depend on the processing

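The libraries of the labels did not overlap for 4 members lower in cKO under other scaling too. Leaving out a library, or comparing same-numbered pairs, cannot reduce that number, and the members higher went from 3 to 5 in same-numbered pairs, without WT 2 and without cKO 1. The pooled sum of the members was 1.51-fold higher in cKO and 1.22 to 1.83-fold with 1 library omitted. With a pseudocount of 0.25 CPM the log2 differences of *Ifi204*, *Ifi203-ps* and *Ifi211* were -5.02, -5.92 and -3.10, in place of -3.98, -4.42 and -2.06. Without WT 1 or WT 2 those of *Ifi213*, *Ifi206* and *Ifi209* moved as given with each gene, and *Ifi203* changed sign without cKO 2. The replicate block leaves a member's mean difference as it is by construction.

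Over all genes, 533 were called, against 1367 with no low-count filter, 1096 in the likelihood ratio test of edgeR and 180 to 1790 without a library (465 without WT 1, 180 without WT 2, 1491 without cKO 1, 1790 without cKO 2). Replicate numbers name different mice, and the correlation over genes of WT 1 and cKO 1 in their deviations from the label means was 0.0642. The replicate block gave 1165 called genes, with 9 flanking genes and 4 interferon-stimulated genes among them. Of flanking genes, 3 were called, against 11 with no filter, 8 in the likelihood ratio test, 6 within 10 Mb and 1 to 16 without a library. Of the other p200 genes 2 were called, 1 in DESeq2 and 1 to 2 without a library. Of interferon-stimulated genes 0 were called, against 1 with total counts, 1 with a filter of 1 CPM, 1 in DESeq2, 2 in the likelihood ratio test, 6 with no filter and 0 to 16 without a library. DNA sensing genes gave 0 to 4 and interferon signalling genes 1 to 6 without a library. A fit without a library assumes that the lone one varies like the other label's. For each of these values the cause was not tested.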

Other observations

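The genes whose profile over the 4 libraries was nearest to that of *Ifi204*, by Euclidean distance of log2(CPM + 1) centred on its mean and with the members left out, were *Eps8l1* (distance 0.299), *Gzmb* (0.609), *Col6a4* (0.851), *Zfp990* (0.899) and *Pdlim4* (0.948). They lie on chromosomes 7, 14, 9, 4 and 11. *Eps8l1*, related to an actin regulator, had counts of 320 and 159 for WT, against 4 and 10 for cKO. *Gzmb*, the gene of the cytotoxic protease granzyme B, had 409 and 242 counts against 16 and 28. *Pdlim4*, a cytoskeletal adaptor gene, had 245 and 203 counts against 14 and 11. With 4 libraries of 2 labels, nearness in profile restates a fall in the libraries labelled cKO.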
